A study of Mus musculus with 9 samples.

Results

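The 39 protein-coding genes of the 4 mouse Hox clusters were followed through RNA sequencing of knee joints. They were chosen by symbol, as every gene named Hoxa, Hoxb, Hoxc or Hoxd with a number, and they are 39 of the 53379 gene identifiers in the count tables. The Hoxa cluster on chromosome 6 gave 11 genes, the Hoxb cluster on chromosome 11 gave 10, and the Hoxc cluster on chromosome 15 and the Hoxd cluster on chromosome 2 gave 9 each. Joints of male C57BL/6 mice in 3 groups were sequenced, each group as 3 libraries. Joints of the Non surgery group had no operation, and the sources used here do not give their age. The Luc and PC2 groups shared anterior cruciate ligament transection at 8 weeks of age, an operation that makes the knee unstable and brings on osteoarthritis. They differed in a lentivirus put into the joint 1 week later, which carried Luc as the control or PC2, and joints were taken 8 weeks after the virus. The promoter of the virus, the cells it entered and the number of mice per group are not given in the sources used here.

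Hox genes encode homeodomain transcription factors that give cells their position along the body axis and the limb. Genes of one number in different clusters, such as Hoxa10, Hoxc10 and Hoxd10, are paralogs, and the order of the numbers along a cluster follows the order of expression from head to tail. In the limb, group 10 genes are needed for the upper segment, group 11 for the next and group 13 for the hand and foot, so the knee lies where group 10 and group 11 territories meet. Adult connective tissue cells keep part of this positional pattern. Polycomb complexes hold silent Hox genes shut, and Hox clusters are among their classic targets.

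Each group was 1 mixture of RNA sequenced as 3 technical repeats, per the labels' protocols. All p-values below therefore measure the spread between repeats of a pool and say nothing of differences between mice. The libraries held 17835989 to 19004316 reads counted to genes, and 17478 genes had enough reads to be tested. The skeletal muscle, chondrocyte and fibroblast markers of a knee joint were all counted, while 4 kidney genes together had 0.0525 to 0.687 CPM (read counts scaled to library size, with edgeR's TMM factors) in any library. Differences are log2 fold changes with their standard errors (SE) from edgeR's quasi-likelihood test, with p-values adjusted by Benjamini-Hochberg over all genes tested.

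At least a 2-fold difference between Luc and Non surgery, at adjusted p under 0.05, was called for 4 of 29 tested Hox genes. Hoxd8, Hoxd9 and Hoxd10, neighbours on chromosome 2, were higher (3 of 29, against 9.43% of all genes). Hoxa13 was lower (1 of 29, against 6.32% of all genes). Only 4 of 9 Hoxd genes were tested, and the Hoxd10 call was lost in 5 of 13 alternative fits. Hoxa2 and Hoxc8, both 1.98-fold higher, lay just under the 2-fold limit. The promoter windows of the 4 genes past that limit are printed to show the DNA at their starts. Each runs from 250 bases before to 50 bases after a RefSeq start of GRCm38.p6, 5′ to 3′ on the gene's strand, with CpG dinucleotides, the sites of DNA methylation, in capitals.
Hoxd8, chr2:74704365-74704664, plus strand: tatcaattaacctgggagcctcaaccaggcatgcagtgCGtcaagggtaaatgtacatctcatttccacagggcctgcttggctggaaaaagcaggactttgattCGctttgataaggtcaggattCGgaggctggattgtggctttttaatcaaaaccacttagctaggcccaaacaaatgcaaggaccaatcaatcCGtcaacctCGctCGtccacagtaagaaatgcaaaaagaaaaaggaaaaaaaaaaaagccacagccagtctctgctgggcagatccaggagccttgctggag
Hoxd9, chr2:74697513-74697812, plus strand: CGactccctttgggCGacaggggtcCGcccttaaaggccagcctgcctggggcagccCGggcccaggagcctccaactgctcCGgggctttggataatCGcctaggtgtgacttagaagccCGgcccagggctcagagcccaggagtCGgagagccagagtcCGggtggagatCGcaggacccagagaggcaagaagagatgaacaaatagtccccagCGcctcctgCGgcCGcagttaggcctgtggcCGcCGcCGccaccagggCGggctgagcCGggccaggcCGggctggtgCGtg
Hoxd10, chr2:74691641-74691940, plus strand: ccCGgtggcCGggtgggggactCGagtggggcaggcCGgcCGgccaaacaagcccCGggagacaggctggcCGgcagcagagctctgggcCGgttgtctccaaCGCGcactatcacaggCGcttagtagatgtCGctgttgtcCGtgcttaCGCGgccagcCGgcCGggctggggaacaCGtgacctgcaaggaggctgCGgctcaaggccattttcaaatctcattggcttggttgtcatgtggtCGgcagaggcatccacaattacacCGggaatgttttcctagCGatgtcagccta
Hoxa13, chr6:52260831-52261130, minus strand: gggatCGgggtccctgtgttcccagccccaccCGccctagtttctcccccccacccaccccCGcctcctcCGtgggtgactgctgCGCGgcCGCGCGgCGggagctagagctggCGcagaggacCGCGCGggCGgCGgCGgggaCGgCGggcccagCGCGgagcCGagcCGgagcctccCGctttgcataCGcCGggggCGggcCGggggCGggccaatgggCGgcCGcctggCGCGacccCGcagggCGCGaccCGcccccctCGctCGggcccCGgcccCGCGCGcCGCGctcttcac
The Hoxa13 window held 45 CpG dinucleotides and was 81.0% G and C, the Hoxd10 window 22 and 62.7%, the Hoxd9 window 20 and 68.3%, and the Hoxd8 window 6 and 46.7%. The 4 windows thus span most of the range of the Hox windows, from 4 to 45 CpG dinucleotides. The RefSeq table held 24 windows for 22 of the Hox genes, and their median was 14.5 CpG dinucleotides, against 7 in the 32851 windows of all genes. On either strand the TATA box TATAAA was in 4 of the 24 Hox windows (16.7%, against 13.6% of all windows), and the YY1 core GCCATNTT in 1, that of Hoxd10 (4.17%, against 6.05%). The motif TGATTNAT, bound by Pbx and Hox proteins together, was in 2 (8.33%, against 3.22%). Overlaps between motifs were not removed, and a match describes letters only.

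Hox transcripts were sparse in the joint, and genes with high numbers, Hoxc10 above all, gave most of the Hox reads. Summed over all 39 genes, the level was 132.0 ± 1.73 CPM for Non surgery, 165.9 ± 2.21 for Luc and 197.2 ± 2.87 for PC2 (SD, n = 3 technical repeats each), and the 3 groups did not overlap. The 16 genes numbered 9 to 13 made 59.1% of Hox reads for Non surgery, 54.9% for Luc and 54.6% for PC2. Within that, Hoxc10 alone supplied 24.9%, 14.3% and 14.2% of all Hox reads, and read shares are not scaled for gene length. Of the 39 genes, 29 were tested, which were 11 of 11 in Hoxa, 7 of 10 in Hoxb, 7 of 9 in Hoxc and 4 of 9 in Hoxd. The other 10 had too few reads: Hoxb1, Hoxb2, Hoxb13, Hoxc12, Hoxc13, Hoxd1, Hoxd3, Hoxd11, Hoxd12 and Hoxd13. Hoxb13, Hoxd1 and Hoxd12 had 0 counts in all 9 libraries, which allows up to 3 counts, or 0.158 to 0.168 CPM, in each. The rest of the 10 had at most 14 counts in any library. Hoxd11 and Hoxd13 had at most 4 counts in a library, while their paralogs Hoxa11 and Hoxa13 were tested.

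Hoxc10, a gene of paralog group 10, stood above every other Hox gene. Per kilobase of exon its level was 17.2 ± 0.324 CPM for Non surgery, 12.5 ± 0.534 for Luc and 14.7 ± 1.34 for PC2 (SD, n = 3), and in each group its libraries did not overlap those of the next gene. That next gene was its paralog Hoxa10, at 3.78 ± 0.391, 6.93 ± 0.459 and 8.16 ± 0.784 CPM per kilobase. Hoxa10 also did not overlap the gene ranked after it in any group. In Non surgery the genes ranked 3 to 6 were Hoxc9 at 2.91, Hoxa7 at 2.85, Hoxc6 at 2.82 and Hoxd8 at 2.58 CPM per kilobase, and each overlapped its neighbour in the order. In Luc and PC2 the gene ranked 3 was Hoxd8, at 5.46 ± 0.324 and 6.03 ± 0.285. Averaged over the 9 libraries the 6 highest were Hoxc10 (14.8), Hoxa10 (6.29), Hoxd8 (4.69), Hoxc6 (4.03), Hoxc9 (3.65) and Hoxa9 (3.21 CPM per kilobase). The third paralog of group 10, Hoxd10, was far lower, at 0.452. Hoxc10 supplied 24.9 ± 0.778% of all Hox reads for Non surgery, 14.3 ± 0.493% for Luc and 14.2 ± 1.38% for PC2.

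**Figure D1:**
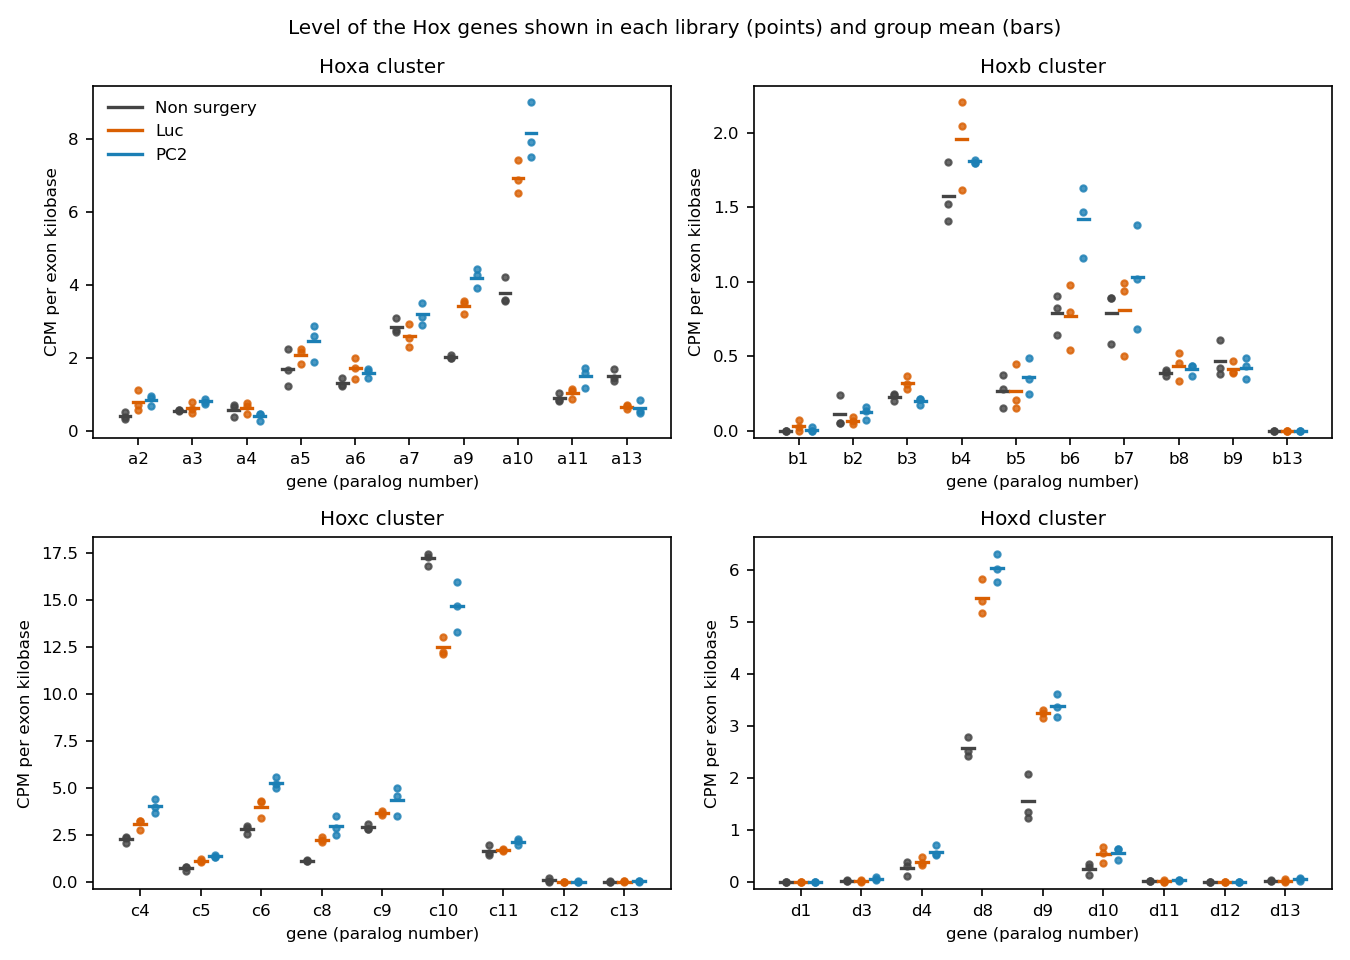
Level of the Hox genes shown, in CPM per kilobase of exon on a linear axis for each cluster, with 1 point per library (3 per group) for the Non surgery, Luc and PC2 groups and bars at the group means. Hoxc10 lies highest in every group, at means of 17.2, 12.5 and 14.7, and Hoxa10 is next.

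Some Hox genes share exon bases with another gene, and reads there cannot be assigned to either. For overlaps on opposite strands the counting did not separate the strands: of 447 genes whose exons are wholly overlapped by exons on the other strand only, 441 had 0 counts in all 9 libraries. Overlap with a gene on either strand covers 62.8% of the exon bases of Hoxd3, 52.9% of Hoxb3, 52.3% of Hoxd4, 35.0% of Hoxa11 and 8.7% of Hoxc10. For Hoxd3 (62.3%), Hoxd4 (52.3%) and Hoxc10 (8.7%) nearly all or all of it is with a gene on the same strand. Their levels per kilobase are uncertain for that reason. With unshared bases only as the length, 5 of the 6 highest genes were the same, and Hoxa7 entered in place of Hoxa9.

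Operated joints with the control virus had higher levels of Hoxd8, Hoxd9 and Hoxd10, of Hoxa2, Hoxa9 and Hoxa10 and of 5 Hoxc genes than joints without surgery, and lower levels of Hoxa13 and Hoxc10. Operation and virus, and any difference in age, cannot be told apart in this comparison. Of the 29 tested genes, 11 were higher in Luc (37.9%, against 31.1% of all 17478 genes) and 2 were lower (6.9%, against 27.7%), while 16 did not pass adjusted p under 0.05. Luc and Non surgery libraries were fully separated for 14 genes (48.3%, against 62.9% of all genes). The median log2 difference was 0.33, against 0.0249 over all genes. At least 2-fold, 3 were higher (9.43% of all genes) and 1 was lower (6.32% of all genes). In either direction 13 were called (44.8%, against 58.8% of all genes). By cluster these were 3 of 4 in Hoxd, all higher; 5 higher and 1 lower of 7 in Hoxc; 3 higher and 1 lower of 11 in Hoxa; and 0 of 7 in Hoxb. In Hoxb, 0 genes also passed at an unadjusted p under 0.05 and 0 by DESeq2. Scaled by library size only, Hoxb4 (log2 0.472, adjusted p = 0.0121) and Hoxb3 (log2 0.648, adjusted p = 0.041) were called higher in Luc. Hoxb4 was also called without Luc replicate 3 (log2 0.427, adjusted p = 0.0269). Since RNA came from whole joints, more cells that express a gene and more RNA per cell cannot be told apart.

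The 3 higher Hoxd genes lie side by side in their cluster. Only 4 of its 9 genes had enough reads to be tested, which limited which neighbours could be called. Hoxd8, a central Hox gene, was at 6.65, 7.65 and 6.91 CPM in Non surgery and at 16.0, 14.2 and 14.8 in Luc. Every Luc library was above every Non surgery library, by 2.12-fold (log2 1.08 ± 0.09 SE, adjusted p = 1.98e-08). Hoxd9 was at 4.44, 2.65 and 2.88 CPM and then at 7.07, 6.93 and 6.74. Its groups did not overlap either, and the difference was 2.08-fold (log2 1.06 ± 0.16, adjusted p = 2.56e-05). Hoxd10 had few reads, at 0.54, 0.633 and 0.24 CPM in Non surgery and 0.676, 1.22 and 1.02 in Luc, and is named outside the rule for named genes, after its values were seen. With 9, 11 and 4 counts in Non surgery, it met the count filter through the operated groups, where it was higher. Its 2.04-fold difference (log2 1.03 ± 0.39, adjusted p = 0.0322) was lost without Non surgery replicate 1 (0.0522), Non surgery replicate 3 (0.148), Luc replicate 2 (0.127) or Luc replicate 3 (0.0764), and by DESeq2 (0.114). Summed over the cluster, Hoxd reads were 11.9 ± 0.501 CPM in Non surgery and 24.3 ± 0.71 in Luc.

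In the Hoxa cluster the genes numbered 9 and 10 were higher, and the gene numbered 13 was lower. Hoxa10 was at 13.8, 11.6 and 11.7 CPM in Non surgery and at 22.5, 24.3 and 21.3 in Luc. The groups did not overlap, and Luc was 1.83-fold higher (log2 0.87 ± 0.092 SE, adjusted p = 3.93e-07). Hoxa9, which is also a gene of blood progenitors, was at 11.2, 11.6 and 11.1 CPM and then at 19.9, 17.8 and 19.6. It was 1.69-fold higher without overlap (log2 0.75 ± 0.08, adjusted p = 4.1e-07). Hoxa2, a gene of the hindbrain and the pharyngeal arches, was at 0.659, 0.575 and 0.901 CPM and then at 1.25, 1.0 and 1.99. The Luc libraries were all higher, by 1.98-fold (log2 0.98 ± 0.33, adjusted p = 0.0175). This call was lost when Luc replicate 3 (adjusted p = 0.118), Non surgery replicate 1 (0.0509) or Non surgery replicate 2 (0.0675) was left out, and under DESeq2 (0.0622). Hoxa13, the hand and foot gene, went the other way, at 3.6, 3.39 and 4.21 CPM in Non surgery and 1.46, 1.74 and 1.67 in Luc. Every Luc library was below every Non surgery library, by 2.29-fold (log2 -1.20 ± 0.22, adjusted p = 0.00016). Hoxa11, which lies between them, had a log2 difference of 0.22 that did not pass.

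In the Hoxc cluster 5 genes numbered 4 to 9 were higher while Hoxc10 was lower. Hoxc8, a gene of the lower trunk, was at 3.18, 3.34 and 3.12 CPM in Non surgery and at 5.98, 6.82 and 6.3 in Luc. The groups did not overlap, and Luc was 1.98-fold higher (log2 0.98 ± 0.15 SE, adjusted p = 2.83e-05). Hoxc5 (1.56-fold, adjusted p = 0.00437), Hoxc6 (1.43-fold, adjusted p = 0.000953) and Hoxc4 (1.35-fold, adjusted p = 0.00465) were higher by less, each without overlap. Hoxc9 was at 6.89, 6.84 and 7.51 CPM in Non surgery and 8.63, 8.93 and 9.16 in Luc, 1.26-fold higher without overlap (adjusted p = 0.0337). The Hoxc9 call was lost without Non surgery replicate 1 (0.0865) or 2 (0.0834), without Luc replicate 1 (0.0524), 2 (0.0706) or 3 (0.0884), with upper quartile factors (0.0503) and by DESeq2 (0.118). Hoxc10 was at 32.1, 33.0 and 33.3 CPM in Non surgery and at 23.1, 23.3 and 24.9 in Luc. All Luc libraries were lower, by 1.38-fold (log2 -0.46 ± 0.067, adjusted p = 1.63e-05). Summed over Hoxc, which adds genes of both directions, the level was 61.5 ± 0.483 CPM in Non surgery and 63.7 ± 2.06 in Luc.

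Read by paralog number, both genes called lower were among the posterior genes, numbered 9 to 13. The counts below stand against 31.1% of all genes called higher and 27.7% called lower. The 8 tested genes numbered 1 to 4 had log2 differences from 0.09 to 0.98, with 2 higher and 0 lower. Of 11 numbered 5 to 8, 4 were higher and 0 lower, with a range from -0.14 to 1.08. Of the 10 posterior genes tested, 5 were higher and 2 lower, with a range from -1.20 to 1.06. Paralogs of group 10 were split, since Hoxa10 and Hoxd10 were higher and Hoxc10 was lower. The Hoxb genes numbered 3 to 9 ranged from a log2 difference of -0.16 to 0.49, the highest being Hoxb3 (adjusted p = 0.121).

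**Figure D2:**
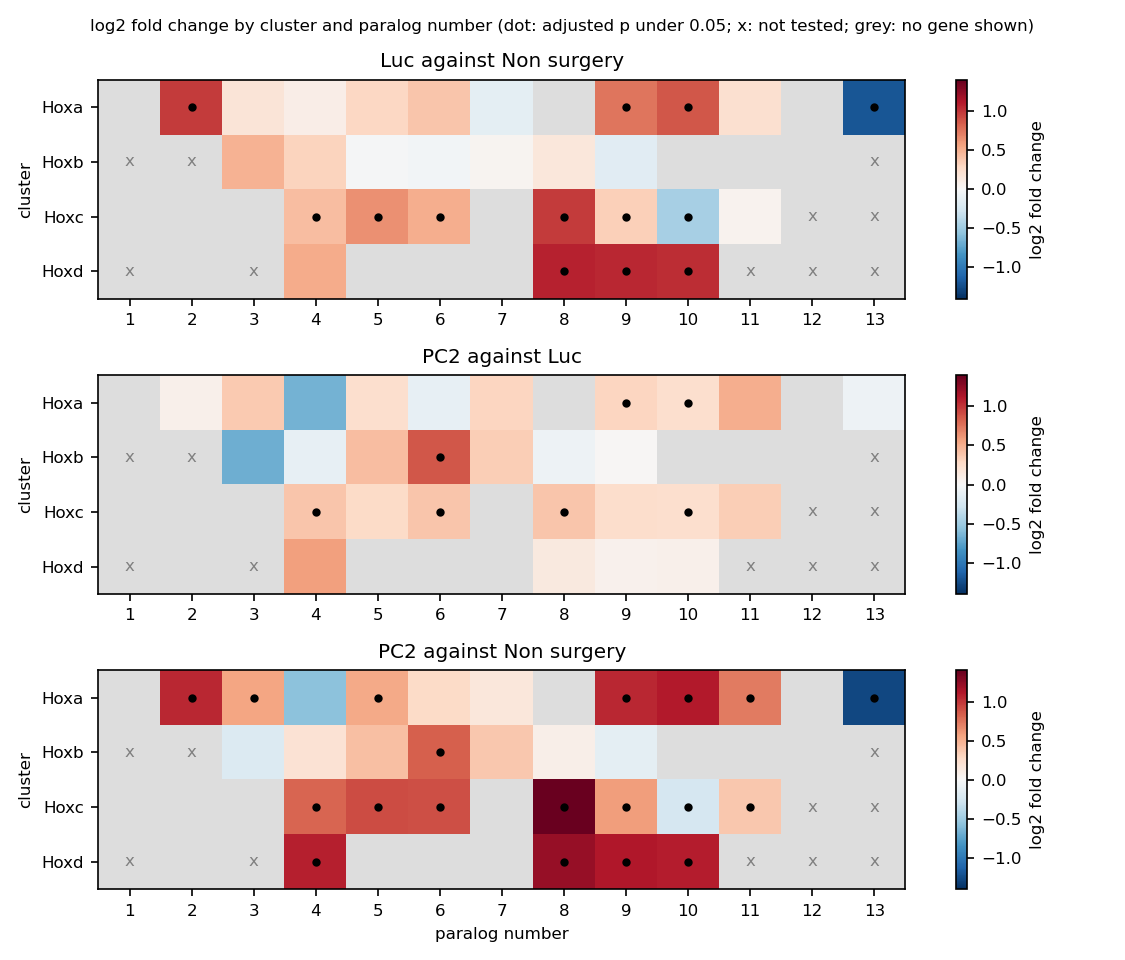
Log2 difference of the tested Hox genes shown, with clusters a to d as rows and paralog numbers 1 to 13 as columns, in 1 panel for each comparison; a dot marks adjusted p under 0.05, a cross a gene that was not tested, and grey the lack of a gene shown. In Luc against Non surgery the Hoxb row holds no dot, and Hoxa13 and Hoxc10 are the dotted genes below 0.

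In operated joints, the PC2 virus went with higher levels of Hoxc4, Hoxc6, Hoxc8, Hoxc10, Hoxa9, Hoxa10 and Hoxb6 than the Luc virus. This comparison uses the same 3 Luc libraries as the one before. Of the 29 tested genes, 7 were higher in PC2 (24.1%, against 16.1% of all genes), 0 were lower (18.6% of all genes) and 22 did not pass. Beside that 0 by edgeR, 1 gene, Hoxb3, was lower at an unadjusted p under 0.05, and 0 were lower by DESeq2. Libraries did not overlap for 12 genes (41.4%, against 48% of all genes), and the median log2 difference was 0.24, against 0.00802 over all genes. Calls in either direction made 24.1% of the tested Hox genes, against 34.7% of all genes. At least 2-fold, 0 Hox genes passed (1.3% of all genes were higher and 2% lower). The 7 genes were 4 of 7 in Hoxc, 2 of 11 in Hoxa, 1 of 7 in Hoxb and 0 of 4 in Hoxd, where 0 passed at an unadjusted p under 0.05 and 0 by DESeq2.

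The Hoxc genes moved most evenly: all 7 tested had log2 differences between 0.23 and 0.39, and 4 passed. Hoxc6 was at 8.26, 10.4 and 10.3 CPM in Luc and at 13.4, 12.5 and 12.1 in PC2, after 7.19, 6.96 and 6.19 in Non surgery. Its PC2 libraries were all above the Luc libraries, by 1.31-fold (log2 0.39 ± 0.1 SE, adjusted p = 0.007). Hoxc4 was at 8.32, 8.3 and 7.06 CPM in Luc and 9.48, 11.3 and 10.3 in PC2, after 6.23, 5.29 and 6.01 in Non surgery. It was 1.31-fold higher without overlap (log2 0.39 ± 0.11, adjusted p = 0.00953), and the call was lost without Luc replicate 3 (0.0518) or PC2 replicate 2 (0.0581). Hoxc8, at 8.12, 7.1 and 9.91 CPM in PC2, was 1.31-fold above Luc without overlap (log2 0.39 ± 0.13, adjusted p = 0.0243). Its call was lost without Luc replicate 1 (0.0856), Luc replicate 3 (0.063) or PC2 replicate 3 (0.156), and by DESeq2 (0.0741). Hoxc10, lower in Luc than in Non surgery, was at 25.4, 30.5 and 28.0 CPM in PC2. These libraries lay above all Luc and below all Non surgery libraries, 1.18-fold above Luc (log2 0.23 ± 0.068, adjusted p = 0.013), and the call was lost without Luc replicate 1 (0.0582) or PC2 replicate 2 (0.0907). Hoxc9, at 12.2, 8.52 and 11.1 CPM in PC2, overlapped Luc and had a log2 difference of 0.25 that did not pass. Without PC2 replicate 2 it passed (log2 0.391, adjusted p = 0.0117).

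Outside Hoxc, 3 genes were higher in PC2. Hoxb6, a trunk gene, was the only Hoxb gene to pass, at 1.92, 1.06 and 1.56 CPM in Luc and 3.2, 2.28 and 2.88 in PC2. In Non surgery it was at 1.26, 1.78 and 1.62, so the PC2 libraries were above all others, 1.83-fold above Luc (log2 0.87 ± 0.24 SE, adjusted p = 0.00925). Hoxa9 was at 24.7, 21.8 and 23.8 CPM in PC2, above every Luc library and 1.23-fold higher (log2 0.30 ± 0.073, adjusted p = 0.00463). Hoxa10, at 24.6, 25.9 and 29.5 CPM in PC2, was 1.18-fold above Luc (log2 0.23 ± 0.084, adjusted p = 0.0397). The Hoxa10 call was lost without Luc replicate 1 (0.0972), Luc replicate 3 (0.149), PC2 replicate 2 (0.0652) or PC2 replicate 3 (0.193), and by DESeq2 (0.0611). Of the genes that moved most in Luc, Hoxd8 was at 17.3, 15.8 and 16.5 CPM in PC2 and Hoxa13 at 2.1, 1.32 and 1.21. Both overlapped their Luc libraries, with log2 differences of 0.14 and -0.076 that did not pass. The lowest values among the 29 were those of Hoxb3 (log2 -0.68 ± 0.26, adjusted p = 0.0549) and Hoxa4 (log2 -0.66 ± 0.35, adjusted p = 0.154).

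**Figure D3:**
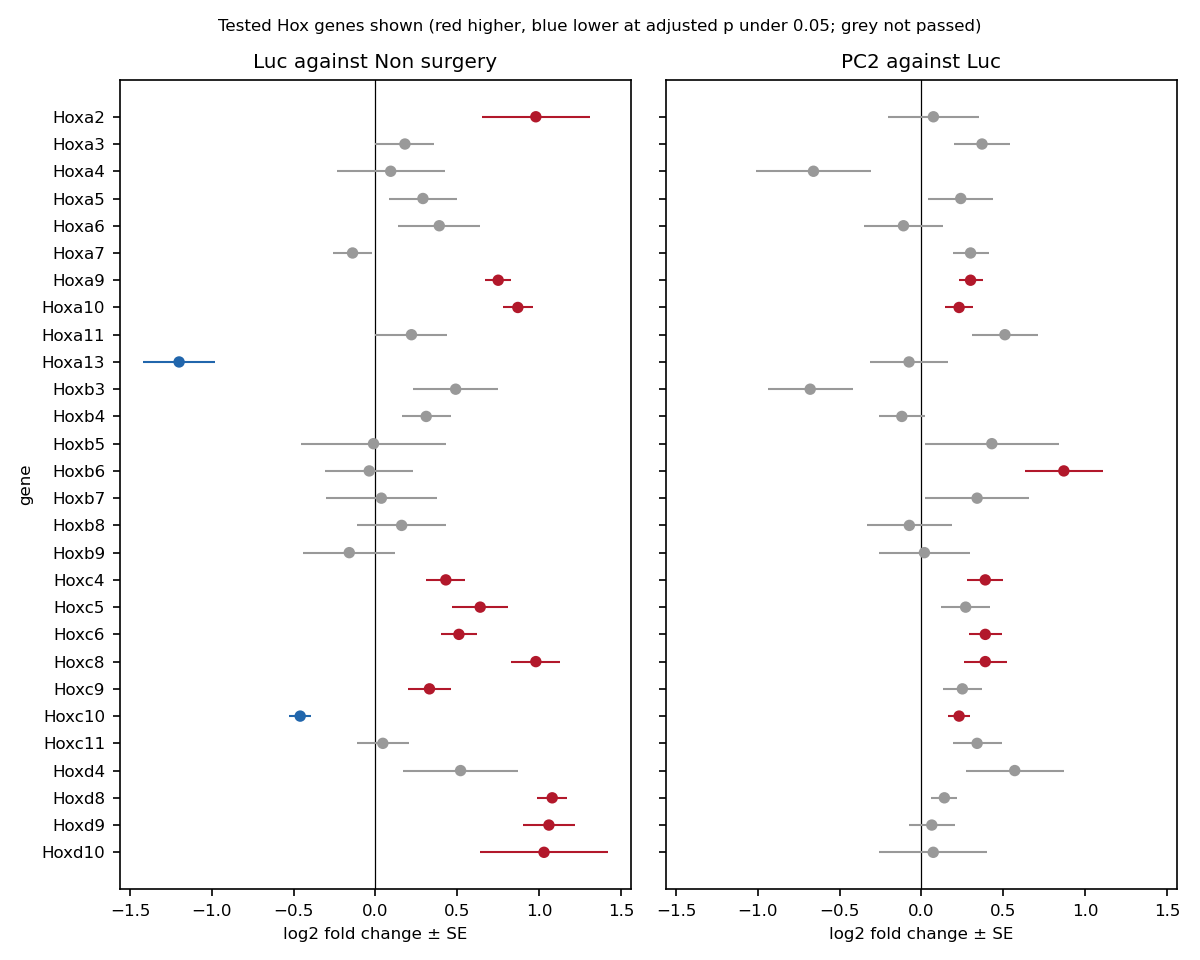
Log2 difference with its standard error for the tested Hox genes shown, with Luc against Non surgery and PC2 against Luc side by side in red (higher) or blue (lower) at adjusted p under 0.05 and grey otherwise. Both panels use the 3 Luc libraries; Hoxd8, Hoxd9 and Hoxd10 lie between 1.03 and 1.08 on the left, and the 7 Hoxc genes lie between 0.23 and 0.39 in PC2 against Luc.

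The comparison of PC2 with Non surgery shares its libraries with both others, so its values are placed beside them and add no independent support. Of the 29 tested genes, 17 were higher in PC2 (58.6%, against 31.5% of all genes), 2 were lower (6.9%, against 31.2%) and 10 did not pass. In either direction 65.5% were called, against 62.7% of all genes. Libraries did not overlap for 19 genes (65.5%, against 66% of all genes), and the median log2 difference was 0.55, against 0.0101 over all genes. At least 2-fold, 8 genes were higher (9.83% of all genes) and 1 was lower (6.53% of all genes). All 4 tested Hoxd genes were higher, by log2 1.09 to 1.22. In Hoxc 6 were higher and 1 lower of 7, in Hoxa 6 higher and 1 lower of 11, and in Hoxb 1 of 7 was higher.

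Among the genes higher in PC2, the largest difference was that of Hoxc8, 2.6-fold higher in PC2 than in Non surgery (log2 1.38 ± 0.14 SE, adjusted p = 3.47e-07). Hoxd8 followed at 2.34-fold (log2 1.22 ± 0.089, adjusted p = 3.28e-09), then Hoxd9, at 7.18, 7.71 and 6.77 CPM in PC2 and 2.18-fold higher (adjusted p = 1.15e-05). Hoxa10 was 2.16-fold higher (adjusted p = 1.58e-08). Hoxd4, an anterior Hoxd gene with few reads, was at 0.36, 0.92 and 1.14 CPM for Non surgery, 0.988, 1.11 and 1.4 for Luc and 2.1, 1.52 and 1.57 for PC2. Its PC2 libraries were above all others, 2.13-fold above Non surgery (log2 1.09, adjusted p = 0.00883), while its Luc and Non surgery libraries overlapped. Hoxd10, at 1.15, 0.761 and 1.15 CPM in PC2, was 2.14-fold higher than in Non surgery (adjusted p = 0.0204), which was lost without Non surgery replicate 3 (0.103), PC2 replicate 1 (0.064) or PC2 replicate 3 (0.0653), and by DESeq2 (0.075). Hoxa13 was 2.42-fold lower (log2 -1.27, adjusted p = 8.38e-05). Hoxc10 was 1.17-fold lower (log2 -0.23 ± 0.066, adjusted p = 0.00655), but scaled by library size only its log2 difference was -0.0712 (adjusted p = 0.37).

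Markers of the joint's cell types differed between the groups beside the Hox genes. Over all genes, 31.1% were higher and 27.7% lower in Luc than in Non surgery. In PC2 against Luc the shares over all genes were 16.1% higher and 18.6% lower, and the counts below stand against these. Summed over 10 genes each, chondrocyte markers were at 733.8 to 831.8 CPM for Non surgery, 4560.9 to 4641.2 for Luc and 7323.4 to 7451.4 for PC2, and all 10 were higher in Luc than Non surgery and in PC2 than in Luc. Fibroblast markers were at 6717.4 to 7409.0, 26566.9 to 27231.3 and 29584.7 to 29986.0 CPM, with 10 of 10 higher in Luc than in Non surgery, and 5 higher and 4 lower in PC2 than in Luc. Skeletal muscle markers ran the other way, at 57974.2 to 60205.6, 24904.9 to 25403.5 and 29453.2 to 29544.5 CPM, with 10 of 10 lower in Luc than in Non surgery and 9 higher in PC2 than in Luc. Blood stem and progenitor markers, relevant to Hoxa9 and the Hoxb genes as genes of those cells, had sums of 222.7 to 228.0, 224.1 to 227.9 and 221.0 to 227.6 CPM, which overlapped in all groups. Of those 10 genes, 4 were higher and 6 lower in Luc than in Non surgery, and 2 were higher and 4 lower in PC2 than in Luc. Of 8 neutrophil and precursor markers, 8 were lower in Luc than in Non surgery and 7 higher in PC2 than in Luc, with sums of 12337.9 to 12745.5, 9827.8 to 10394.5 and 10958.3 to 11113.8 CPM. Of 8 B cell precursor markers, 8 were higher in Luc than Non surgery and 7 lower in PC2 than in Luc. Of 6 endothelial markers, 6 were higher and then 6 lower, and of 6 adipocyte markers 2 were higher and 3 lower and then 5 higher. All 8 osteoblast and all 6 tendon markers were higher in Luc than Non surgery. No gene of these lists was at 0 in all libraries. The part of any of these cell types in the Hox differences was not tested.

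**Figure D4:**
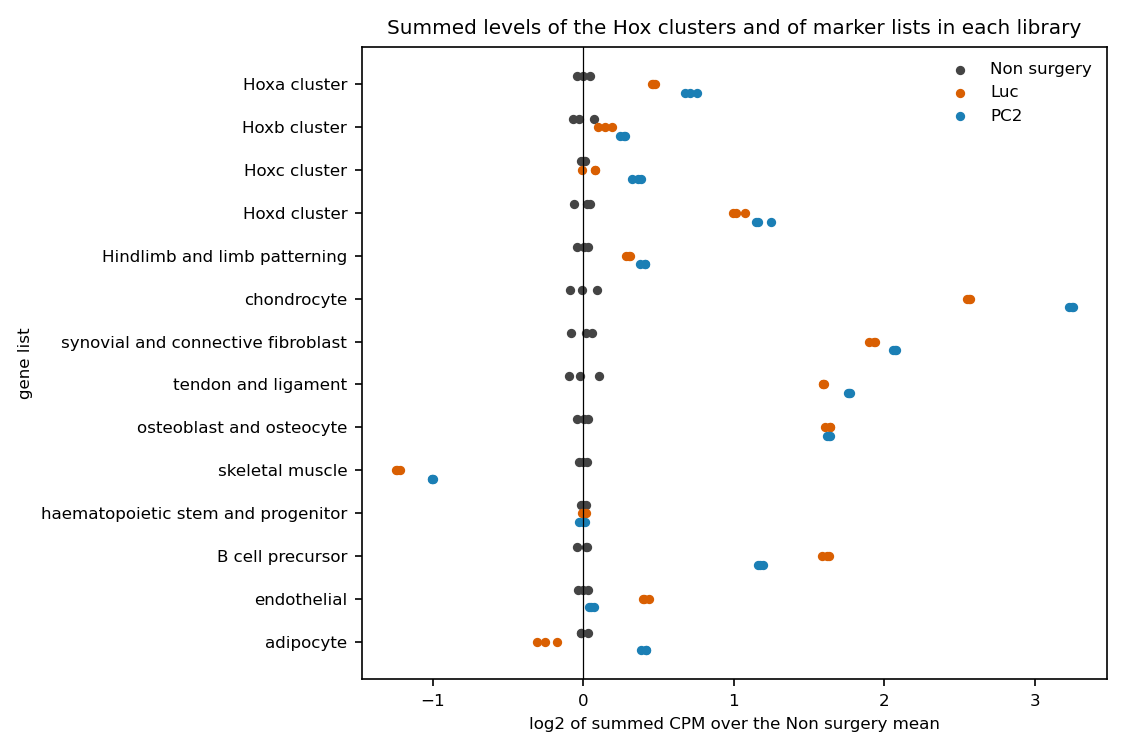
Summed CPM of each Hox cluster, of limb patterning genes and of cell type marker lists in each library, as log2 over the Non surgery mean, with 1 point per library and group colours. The Hoxd sum, at means of 11.9, 24.3 and 27.1 CPM, moves most among the clusters, and the chondrocyte sum moves most among all lists shown.

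Other genes that place or regulate Hox expression were followed in lists. Their counts stand against 31.1% of all genes higher and 27.7% lower in Luc against Non surgery, and 16.1% and 18.6% in PC2 against Luc; the medians over all genes were 0.0249 and 0.00802. Of 17 tested limb patterning genes, 13 were higher and 2 lower in Luc than in Non surgery (median log2 1.21), and 7 were higher and 1 lower in PC2 than in Luc (median 0.29). The 2 lower in Luc were Tbx15 (log2 -1.05, adjusted p = 1.32e-13) and Tbx3 (log2 -0.34, adjusted p = 0.0412). Tbx15 had the highest level of the list in Non surgery, at a mean of 174.9 CPM, and was at 84.3 in Luc. In PC2 against Luc, Prrx1 was lower (log2 -0.26, adjusted p = 6.44e-05), while Tbx15 and Tbx3 were among the 7 higher. Tbx15, Tbx3 and Prrx1 are named outside the rule for named genes, after their values were seen. The largest differences between Luc and Non surgery were those of Prrx2, a limb mesenchyme homeobox gene (log2 2.12, adjusted p = 3.22e-09), and Lhx2 (log2 1.79, adjusted p = 0.00204). Lhx2 had few reads, 2 to 26 counts a library. At 0.3, 0.115 and 0.481 CPM in Non surgery, it met the count filter through the operated groups, where it was higher. Pitx1, which specifies the hindlimb, was at 4.5, 4.66 and 3.06 CPM for Non surgery, 14.0, 11.9 and 14.9 for Luc and 18.3, 20.7 and 20.4 for PC2, without overlap. Tbx5, a gene used in textbooks as the forelimb counterpart, was also counted in these knees, at 1.08 to 2.16, 3.07 to 3.22 and 4.09 to 5.28 CPM. Of 9 Hox cofactor genes, which encode partners that bind DNA with Hox proteins, 5 were higher and 2 lower in Luc than in Non surgery (median log2 0.17). They included Meis3 (log2 1.10, adjusted p = 6.39e-08) and Pknox2 (log2 -1.34, adjusted p = 1.07e-09). In PC2 against Luc 3 cofactors were higher, among them Pknox2 (log2 0.43, adjusted p = 0.00201) and Pbx3 (log2 0.27, adjusted p = 0.0315), and 1 was lower (median 0.11).

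Polycomb and Trithorax genes encode proteins that keep Hox clusters silent or active. Over all genes, again, 31.1% were higher and 27.7% lower in Luc against Non surgery, and 16.1% and 18.6% in PC2 against Luc. Of 20 genes of Polycomb repressive complex 1, 11 were higher and 2 lower in Luc than in Non surgery (median log2 0.18), led by Pcgf2 (log2 1.12, adjusted p = 6.97e-09) and Cbx2 (log2 0.91, adjusted p = 2.51e-05). In PC2 against Luc 2 were higher, among them Ring1 (log2 0.32, adjusted p = 0.00119), and 3 lower, among them Phc3 (log2 -0.60, adjusted p = 6.59e-08), with a median of 0.04. Of 12 genes of Polycomb repressive complex 2, 5 were higher and 2 lower in Luc than in Non surgery (median log2 0.03), among them the methyltransferase gene Ezh2 (log2 0.48, adjusted p = 5.65e-08). In PC2 against Luc 1 was higher, Phf1 (log2 0.27, adjusted p = 0.000111), and 3 lower, among them Mtf2 (log2 -0.39, adjusted p = 0.0029), with a median of -0.04. Of 11 Trithorax and histone demethylase genes, which oppose Polycomb, 3 were higher in Luc than Non surgery (median log2 0.02), a share near that over all genes, and the others did not pass. In PC2 against Luc 3 were lower, among them Kdm6a (log2 -0.42, adjusted p = 5.56e-06) and Ash1l (log2 -0.27, adjusted p = 0.000128), and the others did not pass (median -0.06). Whether these lists moved with the Hox genes was not tested.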

How the data were processed

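The authors deposited whole-number read counts per Ensembl gene for each library. The submitters' processing notes name HISAT2, HTSeq, DESeq2 and mm10; versions, annotation release and strand setting are not given in the sources used here. TRIzol extraction and a NEBNext Ultra library kit are stated in the protocols, per the labels. Reads in no gene were 7.29 to 9.25% and ambiguous reads 5.72 to 6.65% of each library; both stayed out of totals and tests. Names and exon lengths came from GENCODE M21 (53274 of 53379 identifiers matched), and promoters from RefSeq.

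The counts of all 9 libraries were fitted once with edgeR 4.0.16 in R 4.3.3: TMM factors, filterByExpr with a minimum count of 10, the two-sided quasi-likelihood test, and Benjamini-Hochberg adjustment over 17478 genes, called at adjusted p under 0.05. Levels are TMM-scaled CPM, per kilobase of exon where genes are compared. A method check on simulated counts came first. Values were given per sample for up to 6 called members per comparison and direction, by size of change among those with a mean of at least 1 CPM, and for the 6 highest levels. Other lists name up to 2 genes per comparison. Some genes are not reported here by name; counts over lists include them. The members and lists were chosen with earlier results of these data known. Alternatives were other scalings and filters, DESeq2 1.42.0, fits of 2 groups, a replicate block, and leaving out each library. No libraries were duplicates: within groups, chi-square per degree of freedom was 3.94 to 8.67. Limits on 0 counts cover counting error only.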

Additional observations from a re-analysis of the deposited data

How the results depend on the processing

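No Hox gene changed direction among its calls. Called under every alternative were 10 of 13 genes in Luc against Non surgery (the exceptions were Hoxa2, Hoxc9 and Hoxd10), 3 of 7 in PC2 against Luc (Hoxa9, Hoxb6 and Hoxc6) and 15 of 19 in PC2 against Non surgery (the exceptions were Hoxa5, Hoxc10, Hoxc11 and Hoxd10). In PC2 against Luc calls were gained as well as lost, with 12 gained and 13 lost over all Hox genes and alternatives. With median-of-ratios factors, for example, Hoxa7 (adjusted p = 0.047) and Hoxa11 (0.0471) were added, after 0.0553 and 0.0521 in the main fit. With genes of at least 1 CPM on average, 1 Hox gene was lower in PC2 than in Luc, Hoxb3 (adjusted p = 0.0377). With library size only, 1 was lower in PC2 than in Non surgery, Hoxa13. With exon bases shared with no other gene as the length, 5 of the 6 highest levels were the same. Only the length was changed there, and 20.4% of exon bases are shared for Hoxa7 and 1.52% for Hoxa9. Why calls moved between the alternatives was not tested. Leaving out 1 library at a time gave 8 to 10 higher and 2 lower Hox genes in Luc against Non surgery, 5 to 8 and 0 in PC2 against Luc, and 14 to 16 and 2 in PC2 against Non surgery. Over all genes those fits gave 5003 to 5143 higher and 4536 to 4737 lower in Luc against Non surgery, against 5431 and 4848 with all libraries. In PC2 against Luc they gave 2215 to 2454 and 2706 to 2879, against 2806 and 3252. In PC2 against Non surgery they gave 5108 to 5346 and 5104 to 5326, against 5505 and 5447. DESeq2 gave 8, 5 and 14 higher Hox genes, and 4495, 2251 and 4736 higher over all genes.

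Scaled by library size only, the median log2 difference over all genes was 0.185 instead of 0.025 in Luc against Non surgery and 0.168 instead of 0.01 in PC2 against Non surgery; that over Hox genes was 0.49 and 0.7. The share of called genes that were higher then went from 52.8 to 70.1% and from 50.3 to 66.9%; with upper quartile factors it went from 46.3 to 56.4% in PC2 against Luc. With the replicate number as a block, 11 Hox genes were higher and 2 lower in Luc against Non surgery, 8 and 0 in PC2 against Luc (Hoxa7 was added, adjusted p = 0.0489), and 17 and 2 in PC2 against Non surgery. Over all genes the block gave 5456 higher and 4871 lower in Luc against Non surgery, 2867 and 3325 in PC2 against Luc, and 5540 and 5479 in PC2 against Non surgery. The replicate numbers did not pair the samples. Deviations of same-numbered libraries correlated at -0.027 to 0.057, and in 8 of 18 cases a library correlated best with its own number. Hoxd10, Hoxd4 and Hoxa2 had few counts, at most 23, 40 and 37 in a library. Whether depth set which calls held was not tested.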

Other observations

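Genes on either side of the Hox clusters were read with them, and the list was not limited to the nearest gene on each side. Of 9 tested flanking genes, 1 was higher and 3 were lower in Luc than in Non surgery (31.1% and 27.7% of all genes), and 4 were lower in PC2 than in Luc (18.6% of all genes); the others did not pass. Snx10, on one side of Hoxa, was higher in Luc (log2 0.59, adjusted p = 8.51e-09) and lower in PC2 than in Luc (log2 -0.29, adjusted p = 9.25e-05). Hibadh, on the other side of Hoxa, was lower in Luc (log2 -0.49, adjusted p = 1.17e-07), and Lnpk, beside Hoxd, was lower in PC2 than in Luc (log2 -0.40, adjusted p = 0.0204). No test set these genes against the Hox genes.

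Non-coding RNAs of the clusters were near the limit of detection. Of 14 sought by name, 11 were found and 4 had enough reads to be tested. Of those 4, 1 was higher in PC2 than in Non surgery, where 31.5% of all genes were higher. It was Hotairm1 (log2 1.15, adjusted p = 0.0305), on 3 to 16 counts a library. At 0.3, 0.173 and 0.36 CPM in Non surgery, Hotairm1 met the count filter through operated libraries only. Hoxa11os, the antisense neighbour of Hoxa11, was at 0.48, 0.46 and 0.421 CPM in Non surgery, 0.156, 0.0529 and 0 in Luc, and 0.105, 0.457 and 0.734 in PC2, and was not tested. Its reads cannot be told apart from those of Hoxa11 where the exons overlap.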
